A study of Homo sapiens with 16 samples.

Results

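The E2F, DP and retinoblastoma family genes, which together set the transcription of genes for S phase, were followed in HCT116, an established line of human colorectal carcinoma cells, that carried a doxycycline-inducible shRNA against NAA40 (NAA40-KD) or a scramble shRNA (SCR). The 10 members were E2F1, E2F2, E2F3, E2F7, E2F8, E2F4, TFDP1, RB1, RBL1 and RBL2, chosen by symbol from the 33937 genes of the count table, and all 10 were found and passed the filter on low counts in every fit. RNA-seq of total RNA gave 16 libraries, 4 of each line with each doxycycline label, called SCR (−dox) and NAA40-KD (−dox), or SCR (+dox) and NAA40-KD (+dox), where (+dox) stands for 96 h with doxycycline at 1 μg/ml and (−dox) for 96 h without it. These labels follow the titles and the treatment field, while the count columns of the (−dox) groups are named wDox, which could be read as either with or without doxycycline. Both lines are stable lines of HCT116, and whether each is a single clone is not given in the sources used here. NAA40 is the N-terminal acetyltransferase of histones H2A and H4.

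In a resting cell, RB1, RBL1 and RBL2 bind E2F proteins through their pocket and hold E2F targets silent. Cyclin-dependent kinases phosphorylate the pocket proteins in G1, the activators E2F1, E2F2 and E2F3 are then freed, and genes for DNA replication are switched on. E2F proteins of this kind bind DNA as dimers with a DP protein such as TFDP1, E2F4 works mainly as a repressor with RBL1 and RBL2 in the DREAM complex, and E2F7 and E2F8 are repressors that act without DP and are themselves E2F targets.

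Several of these genes carry E2F elements in their own promoters, and the sequences of 4 of them are shown, picked after the levels were seen. The members that fell most in NAA40-KD (−dox) against SCR (−dox), E2F1, E2F2 and RBL1, hold such an element close to the start of transcription. So does E2F3, which did not fall with them in that comparison. The E2F element searched was TTTNNCGC with each N either C or G, which gives the words TTTCCCGC, TTTCGCGC, TTTGCCGC and TTTGGCGC, on both strands. The 150 bases before the RefSeq start of transcription (GRCh38.p14) are given 5′ to 3′ on the strand of the gene, with the E2F elements in capitals.
E2F1 promoter, chr20:33686386-33686535 (minus strand): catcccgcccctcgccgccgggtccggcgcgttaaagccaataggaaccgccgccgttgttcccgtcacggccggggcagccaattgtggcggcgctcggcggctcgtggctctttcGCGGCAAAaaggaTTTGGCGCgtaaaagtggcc
E2F2 promoter, chr1:23531234-23531383 (minus strand): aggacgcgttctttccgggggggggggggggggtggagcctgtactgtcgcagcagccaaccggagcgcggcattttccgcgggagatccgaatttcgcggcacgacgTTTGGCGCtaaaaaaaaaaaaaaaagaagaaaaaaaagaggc
E2F3 promoter, chr6:20401729-20401878 (plus strand): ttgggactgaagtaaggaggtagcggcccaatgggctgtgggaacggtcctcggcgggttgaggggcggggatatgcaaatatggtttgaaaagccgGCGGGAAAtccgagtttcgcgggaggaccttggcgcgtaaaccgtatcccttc
RBL1 promoter, chr20:37095998-37096147 (minus strand): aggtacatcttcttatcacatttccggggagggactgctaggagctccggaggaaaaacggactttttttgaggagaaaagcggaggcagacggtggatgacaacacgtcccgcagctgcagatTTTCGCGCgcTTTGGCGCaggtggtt
The window searched ran from 250 bases before the start to 50 bases after it, and RefSeq promoters of this window were at hand for 9 of the 10 members (E2F8 was the other). An E2F element was found for 5 of the 9, namely E2F1, E2F2, E2F3, TFDP1 and RBL1. The 9 members had 11 windows, of which 5 held an element, against 3.31% of all 35116 promoter windows. E2F1 and RBL1 held 2 elements each, and 0.145% of all promoter windows held more than 1. Counted from the first transcribed base as position 0, those of E2F1 began at −33 (on the opposite strand) and −20, and those of RBL1 at −26 and −16. The single element of E2F2 began at −42, that of E2F3 at −53 and that of TFDP1 at −120, the last 2 on the opposite strand. The CHR element (TTTGAA or TTCGAA on either strand), through which DREAM is known to bind late cell cycle genes, was found in the windows of E2F3 and RBL2 and in 16.4% of all promoters. The RB1 window and the 2 RBL2 windows lie inside these genes as GENCODE release 29 draws them. The promoters at the outer starts of RB1 and RBL2 were therefore not searched. E2F3 and RBL2 had 2 windows each, and the second window held no match. E2F7, which lay below its controls in every NAA40-KD (−dox) library, held no E2F element. A match is a run of letters and not a measured binding site, and a link between element and level was not tested.

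**Figure D1:**
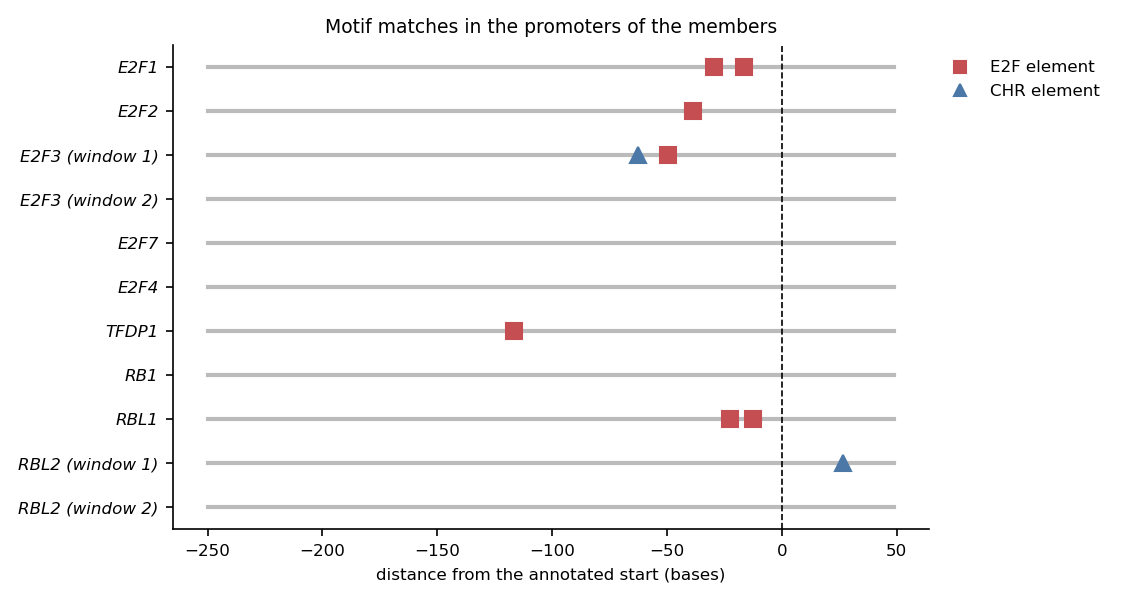
Positions of the E2F element (red squares) and the CHR element (blue triangles) along the RefSeq promoter windows of 9 members, in bases from the annotated start (dashed line at 0), each grey bar being 1 window. E2F1 and RBL1 carry 2 E2F elements each within 33 bases of the start, E2F2, the first window of E2F3 and TFDP1 carry 1, and the windows of E2F7, E2F4, RB1 and RBL2 carry 0.

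The knockdown target and the libraries were examined first. NAA40 stood at 29.4 ± 3.63 CPM (counts scaled to the size of the library with TMM normalization, mean ± SD, n = 4 in each group) in SCR (−dox) and 27.4 ± 1.45 in SCR (+dox). It stood at 11.8 ± 1.94 CPM in NAA40-KD (−dox) and at 30.3 ± 1.59 CPM in NAA40-KD (+dox). The knockdown was thus seen only under the (−dox) label, which goes against an shRNA induced by doxycycline, and every group is therefore called by its label only. Total counts ran from 11065606 to 13855486 per library. Of 10 epithelial markers, 7, among them EPCAM, CDH1 and KRT8, were above 1 CPM in every library, while CDX1, VIL1 and LGALS4 were at most at 1 CPM in all of them. The 5 blood cell markers summed to at most 1.02 CPM in a library, the 3 endothelial markers summed to at most 2.96 CPM, and of the 6 fibroblast markers COL1A1 alone was plainly detected, at 56.7 to 195.3 CPM.

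The library NAA40-KD (−dox) replicate 4 stood apart from the rest. In it 32.9% of 14392 genes lay more than 2-fold from the mean of the other 3 replicates, against 0.459% to 2.3% in the 15 other libraries. Its summed epithelial markers reached 11095.8 CPM, against 5138.1 to 6043.2 CPM in the other 3 replicates of its group, its summed fibroblast markers reached 196.1 CPM against 68.1 to 81.7 CPM, and 5.03% of its counts fell on mitochondrially encoded genes against 6.42% to 14.3% elsewhere. Its deviation followed the GC content of the transcripts. With the genes in 5 bins of GC content, the median log2 deviation from replicates 1 to 3 in the lowest bin (27.8% to 41.1%) was −1.20, in the middle bin it was −0.03, and in the highest bin (58.5% to 74.4%) it was 1.11. Of the members, RB1 (37.3% GC) deviated by −1.81, RBL1 (40% GC) by −1.24, E2F4 (59.3% GC) by 0.88 and E2F1 (62.5% GC) by 0.90 on this scale. After subtraction of the median of the GC bin, RB1 still deviated by −0.61 and the other 9 members by between −0.24 and 0.09. The main results that rest on this library are given with and without it.

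**Figure D2:**
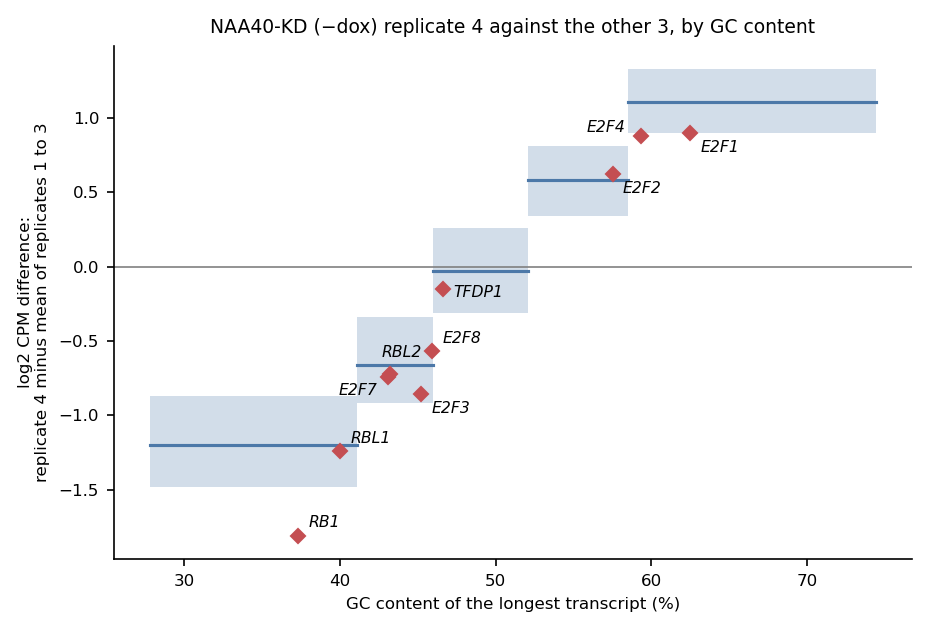
Log2 CPM of NAA40-KD (−dox) replicate 4 minus the mean of replicates 1 to 3 (vertical axis) against the GC content in percent of the longest GENCODE transcript (horizontal axis), for each member (diamonds) and for all genes in 5 bins of GC content (blue line, median; band, interquartile range). The medians climb from −1.20 in the lowest bin to 1.11 in the highest, 9 members lie within 0.24 of the median of their bin, and RB1 lies 0.61 below it.

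To compare members, levels were divided by exon length and are given as CPM per kilobase in SCR (−dox). TFDP1 was highest at 52.7 ± 6.5 and E2F4 followed at 31.6 ± 1.7 (SD, n = 4), and neither overlapped any other member. E2F3 at 10.9 ± 1.08, RB1 at 10.5 ± 1.37, E2F1 at 10.0 ± 1.74 and E2F8 at 8.65 ± 0.857 came next. RBL2 stood at 7.10 ± 0.856, E2F2 at 5.59 ± 0.946, E2F7 at 4.97 ± 0.38 and RBL1 at 4.00 ± 0.644. From E2F3 down to RBL1, the ranges of mean ± SD overlapped between neighbours in this order. E2F4, the E2F of the DREAM complex, was the most abundant of the 6 E2F transcripts, and RBL1 was the least abundant of the 3 pocket protein transcripts.

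The comparison of NAA40-KD (−dox) with SCR (−dox) sets the libraries with low NAA40 against their line control at the same doxycycline label. E2F1, E2F2, E2F8, TFDP1 and RBL1 were lower at an adjusted p under 0.05, so 5 of the 10 members fell and 0 rose, where 3.54% of 13903 genes tested were lower and 2.88% were higher. Without replicate 4 of NAA40-KD (−dox), 6 members were lower, E2F7 being added, and RBL2 was higher, where 19.4% of genes were lower and 17.1% were higher. The 4 libraries of NAA40-KD (−dox) lay below all 4 of SCR (−dox) for 6 members, E2F7 included, which 11.9% of all genes did. With the absolute log2 fold change above 1 that the study also asked for, 3 members, E2F1, E2F2 and RBL1, passed in this direction, against 1.85% of genes. The median log2 fold change was −0.60 over the 10 members and 0.04 over all genes tested. Adjusted p-values are from edgeR's quasi-likelihood test over all genes, and a bulk level cannot tell fewer cells in a phase of the cycle from less RNA in each cell.

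**Figure D3:**
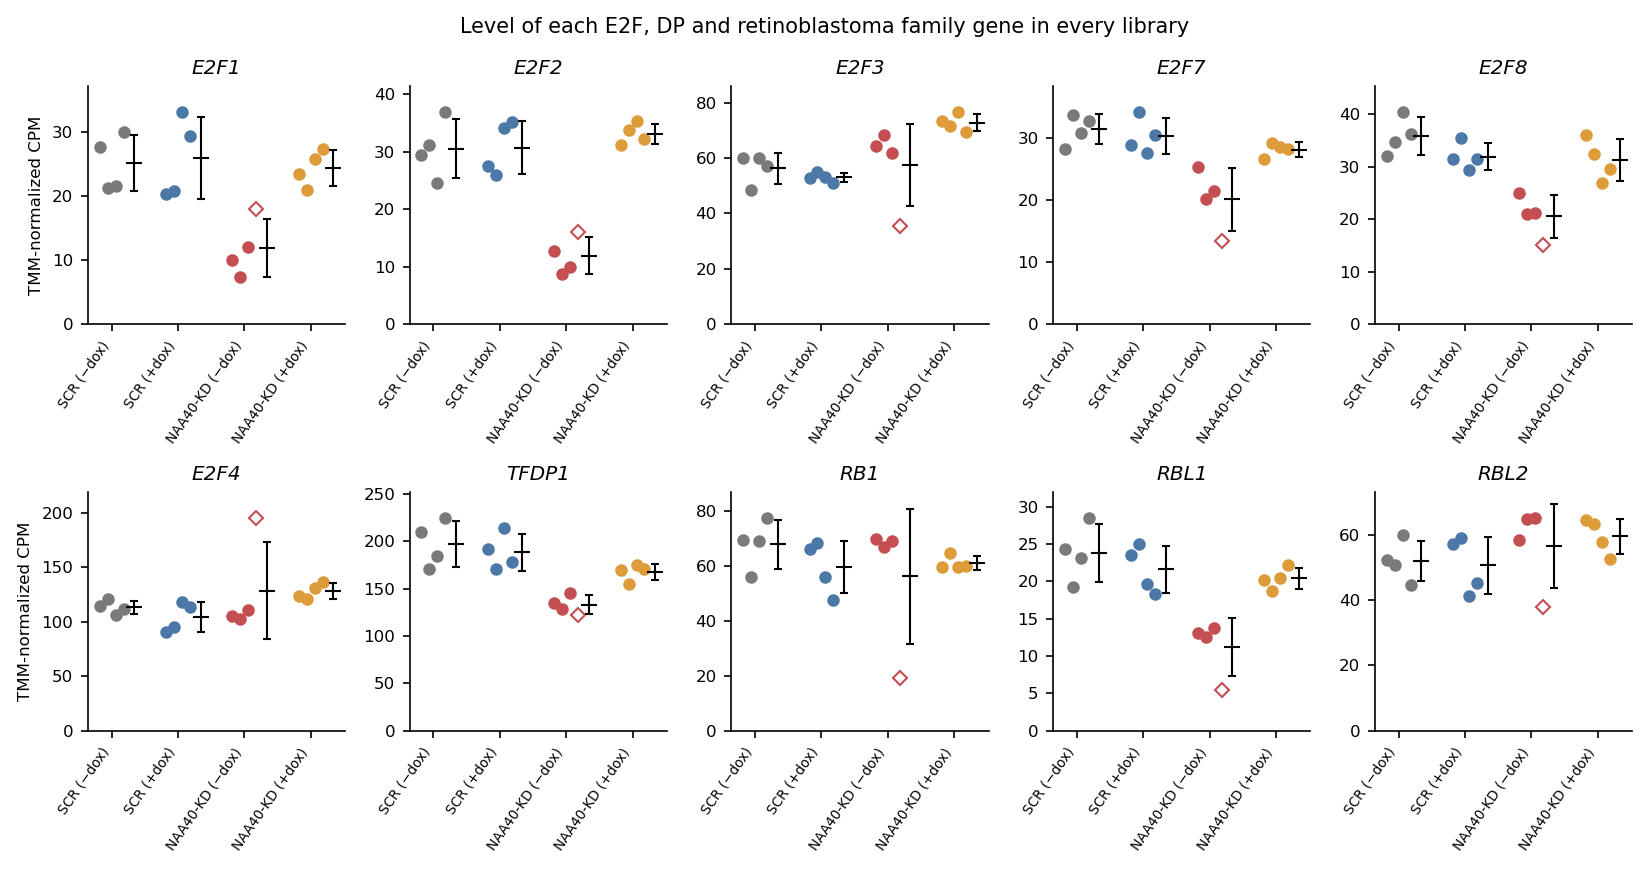
TMM-normalized CPM of each member in every library (points, replicates 1 to 4 from left to right in each group) with the mean ± SD of the group in black; the open diamond is NAA40-KD (−dox) replicate 4. All 4 libraries labelled NAA40-KD (−dox) lie below all 4 of SCR (−dox) for E2F1, E2F2, E2F7, E2F8, TFDP1 and RBL1, while replicate 4 alone is low for RB1 (19.3 CPM) and high for E2F4 (195.4 CPM).

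Among the activators, E2F2 fell most. E2F2 (ENSG00000007968, chr1:23506430-23531220, minus strand, GRCh38) stood at 29.4, 31.1, 24.5 and 37.0 CPM in SCR (−dox) and at 12.8, 8.75, 10.0 and 16 CPM in NAA40-KD (−dox). The highest NAA40-KD (−dox) library was below the lowest SCR (−dox) library, so the groups did not overlap. It changed by −1.35 ± 0.23 on the log2 scale (estimate ± SE, adjusted p = 0.0115), or to 39.2% of the control level, and it passed in all 8 fits that left out 1 library. Without replicate 4 it was −1.54 ± 0.16 (adjusted p = 3.66e-06).

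E2F1 (ENSG00000101412, chr20:33675683-33686404, minus strand), the founding activator of the family, stood at 27.7, 21.3, 21.6 and 30.0 CPM in SCR (−dox) and at 10.0, 7.3, 12.0 and 18 CPM in NAA40-KD (−dox). The groups did not overlap here either, and the library nearest to the controls was replicate 4, in which GC-rich transcripts such as this one were high. On the log2 scale E2F1 changed by −1.08 ± 0.28 (adjusted p = 0.0482), close to the threshold, and −1.37 ± 0.17 (adjusted p = 2.53e-05) without replicate 4. Leaving out any one of the 7 other libraries kept the direction and gave an adjusted p of 0.0906 to 0.152.

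E2F3 (ENSG00000112242, chr6:20401906-20493715, plus strand), the third activator, did not pass. It stood at 60.1, 48.3, 60.0 and 57.0 CPM in SCR (−dox) and at 64.2, 68.4, 61.7 and 35.5 CPM in NAA40-KD (−dox), where the first 3 replicates were above the controls and replicate 4 was below them. The log2 fold change was 0.03 ± 0.21 (adjusted p = 0.948) with all libraries and 0.20 ± 0.096 (adjusted p = 0.122) without replicate 4. E2F3 thus kept or exceeded its control level in 3 of the 4 libraries in which E2F1 and E2F2 were between 28.7% and 47.6% of theirs.

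The atypical repressors E2F7 and E2F8 were both below their controls in every library. E2F8 (ENSG00000129173, chr11:19224063-19241620, minus strand) stood at 32, 34.6, 40.5 and 36.2 CPM in SCR (−dox) and at 25, 21, 21.2 and 15 CPM in NAA40-KD (−dox). On the log2 scale it changed by −0.80 ± 0.18 (adjusted p = 0.0305) and −0.68 ± 0.11 (adjusted p = 0.000268) without replicate 4. It also passed without NAA40-KD (−dox) replicate 1 (adjusted p = 0.048), and lost the call, with an adjusted p of up to 0.109, when any of the other 6 libraries was left out. E2F7 (ENSG00000165891, chr12:77021247-77065580, minus strand) stood at 28.2, 33.7, 30.8 and 32.6 CPM in SCR (−dox) and at 25.3, 20.2, 21.4 and 13.3 CPM in NAA40-KD (−dox). The groups were separate, but the log2 fold change of −0.64 ± 0.20 did not pass (adjusted p = 0.0843), and it did without replicate 4, at −0.49 ± 0.11 (adjusted p = 0.00293).

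TFDP1 (ENSG00000198176, chr13:113584721-113641470, plus strand), the DP partner through which E2F1 to E2F4 bind DNA, stood at 209.8, 170.6, 184.4 and 224.5 CPM in SCR (−dox) and at 135.2, 128.4, 145.4 and 122.4 CPM in NAA40-KD (−dox). All 4 libraries were below all 4 controls, with replicate 4 the lowest by a small margin. A log2 fold change of −0.56 ± 0.15 (adjusted p = 0.0482), or 67.6% of the control level, was found, and one of −0.54 ± 0.10 (adjusted p = 0.000707) without replicate 4. As for E2F1, leaving out any one of the 7 other libraries kept the direction and ended the call (adjusted p = 0.0814 to 0.154).

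E2F4 (ENSG00000205250, chr16:67192169-67198918, plus strand) showed no such fall. It stood at 114.3, 121.0, 106.3 and 111.7 CPM in SCR (−dox) and at 105.0, 103.0, 111.2 and 195.4 CPM in NAA40-KD (−dox), so that only replicate 4 left the range of the controls upwards. A log2 fold change of 0.20 ± 0.23 (adjusted p = 0.645) turned to −0.10 ± 0.081 (adjusted p = 0.383) without replicate 4. Neither value passed.

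The 3 pocket protein genes went different ways. RBL1 (p107, ENSG00000080839, chr20:36996349-37095995, minus strand) stood at 24.4, 19.2, 23.1 and 28.5 CPM in SCR (−dox) and at 13.1, 12.5, 13.7 and 5.43 CPM in NAA40-KD (−dox). Replicates 1 to 3 were close together, at 52.4% to 57.6% of the control mean, and replicate 4 was at 22.8%. The log2 fold change was −1.09 ± 0.27 (adjusted p = 0.0453), and −0.87 ± 0.13 (adjusted p = 0.000154) without replicate 4, which takes it out of the study's fold rule but not of the test. Leaving out any one of the 7 other libraries gave an adjusted p of 0.0711 to 0.147.

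RB1 (ENSG00000139687, chr13:48303726-48599436, plus strand), the retinoblastoma gene itself, stood at 69.2, 55.8, 68.8 and 77.3 CPM in SCR (−dox) and at 69.6, 66.8, 68.9 and 19.3 CPM in NAA40-KD (−dox). Replicates 1 to 3 were at 98.6% to 102.8% of the control mean and replicate 4 was at 28.5%. With all libraries RB1 had a log2 fold change of −0.27 ± 0.34 (adjusted p = 0.678), and of 0.01 ± 0.10 (adjusted p = 0.957) without replicate 4. RBL2 (p130, ENSG00000103479, chr16:53433977-53491649, plus strand), the pocket protein of quiescent cells, stood at 52.4, 50.8, 60.0 and 44.8 CPM in SCR (−dox) and at 58.4, 64.9, 65.2 and 38.0 CPM in NAA40-KD (−dox). Replicates 1 to 3 were high and replicate 4 was the lowest library of the 8. The log2 fold change was 0.13 ± 0.19 (adjusted p = 0.724), and 0.27 ± 0.10 (adjusted p = 0.0459) without replicate 4, with groups that still overlapped.

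Because RBL1 and RBL2 parted, their ratio per exon length was read in each library. RBL2 exceeded RBL1 by 1.74, 2.15, 2.11 and 1.28 times in SCR (−dox), by 1.97, 1.93, 1.72 and 2.01 times in SCR (+dox), by 3.64, 4.23, 3.87 and 5.69 times in NAA40-KD (−dox) and by 2.60, 2.75, 2.29 and 1.93 times in NAA40-KD (+dox). The ratio was higher in each of the 4 libraries labelled NAA40-KD (−dox) than in the 12 others, also with replicate 4 set aside. This ratio was picked after the levels were seen and was given no test. Whether reads were counted by strand is not given in the sources used here. Exons of RBL1 and E2F8 overlap antisense genes (AL136172.1 and AC009652.2) and exons of RBL2 overlap AKTIP and AC007342.6, so part of their counts could belong to these neighbours.

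The comparison of NAA40-KD (+dox) with SCR (+dox) sets the lines against each other where NAA40 was not low. None of the 5 members that fell under the (−dox) label passed here, and 2 other members did: E2F3 and E2F4 were higher, so 2 of 10 rose and 0 fell, where 10.9% of 13869 genes were higher and 13.7% were lower. The median log2 fold change of the members was 0.01. E2F3 stood at 52.9, 55, 53.3 and 51.0 CPM in SCR (+dox) and at 73.5, 71.6, 76.8 and 69.3 CPM in NAA40-KD (+dox). Its groups did not overlap and varied little, and the log2 fold change was 0.46 ± 0.084 (adjusted p = 0.000778), with a call in all 8 fits that left out 1 library. Only when the spread was estimated over all 16 libraries was the call lost (adjusted p = 0.0966).

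E2F4 stood at 90.6, 95.6, 118.4 and 113.2 CPM in SCR (+dox) and at 123.8, 120.7, 131.4 and 136.9 CPM in NAA40-KD (+dox), with a log2 fold change of 0.29 ± 0.096 (adjusted p = 0.0323). The highest SCR (+dox) library lay just below the lowest NAA40-KD (+dox) library. The call held without SCR (+dox) replicate 3, SCR (+dox) replicate 4 or NAA40-KD (+dox) replicate 2 and was lost without any one of the other 5 libraries (adjusted p of up to 0.101). Ranges of the pocket protein genes overlapped under this label. RB1 ran from 47.6 to 68.3 CPM in SCR (+dox) and from 59.5 to 64.6 CPM in NAA40-KD (+dox), RBL1 from 18.3 to 25 and from 18.7 to 22.2 CPM, and RBL2 from 41.3 to 59.1 and from 52.7 to 64.5 CPM. TFDP1 overlapped as well, at 170.2 to 214.3 and 154.9 to 175.3 CPM. The members other than E2F3 and E2F4 had log2 fold changes of −0.09 ± 0.15 for E2F1, 0.11 ± 0.11 for E2F2, −0.11 ± 0.10 for E2F7, −0.03 ± 0.11 for E2F8, −0.17 ± 0.089 for TFDP1, 0.04 ± 0.11 for RB1, −0.08 ± 0.12 for RBL1 and 0.23 ± 0.12 for RBL2, with adjusted p-values of 0.155 to 0.852.

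Whether the difference between the lines itself differed between the doxycycline labels was tested as an interaction over all 16 libraries, as the log2 fold change under (−dox) minus that under (+dox). E2F2 (−1.47 ± 0.25, adjusted p = 0.00185), E2F8 (−0.77 ± 0.21, adjusted p = 0.0276) and RBL1 (−1.01 ± 0.30, adjusted p = 0.0452) passed, so 3 of 10 members were lower, where 4.31% of 14392 genes were. E2F1 had nearly the same size as RBL1 and did not pass (−1.01 ± 0.32, adjusted p = 0.0619). Without replicate 4 of NAA40-KD (−dox), 5 members passed, E2F1 at −1.27 ± 0.24 (adjusted p = 0.000613) and E2F4 at −0.38 ± 0.13 (adjusted p = 0.0317) being added, where 11.9% of genes were lower. In that fit E2F2 was at −1.64 ± 0.20 (adjusted p = 3.08e-06), E2F8 at −0.64 ± 0.16 (adjusted p = 0.00426) and RBL1 at −0.78 ± 0.18 (adjusted p = 0.00267). E2F2 passed in all 16 fits that left out 1 library. E2F8 passed in 9 of them and lost the call without SCR (+dox) replicate 1, 3 or 4, SCR (−dox) replicate 3 or 4, or NAA40-KD (+dox) replicate 1 or 2 (adjusted p of up to 0.0633). RBL1 passed only when SCR (−dox) replicate 2 or one of the 4 NAA40-KD (−dox) libraries was left out, and without any one of the other 11 libraries its adjusted p reached up to 0.0996.

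**Figure D4:**
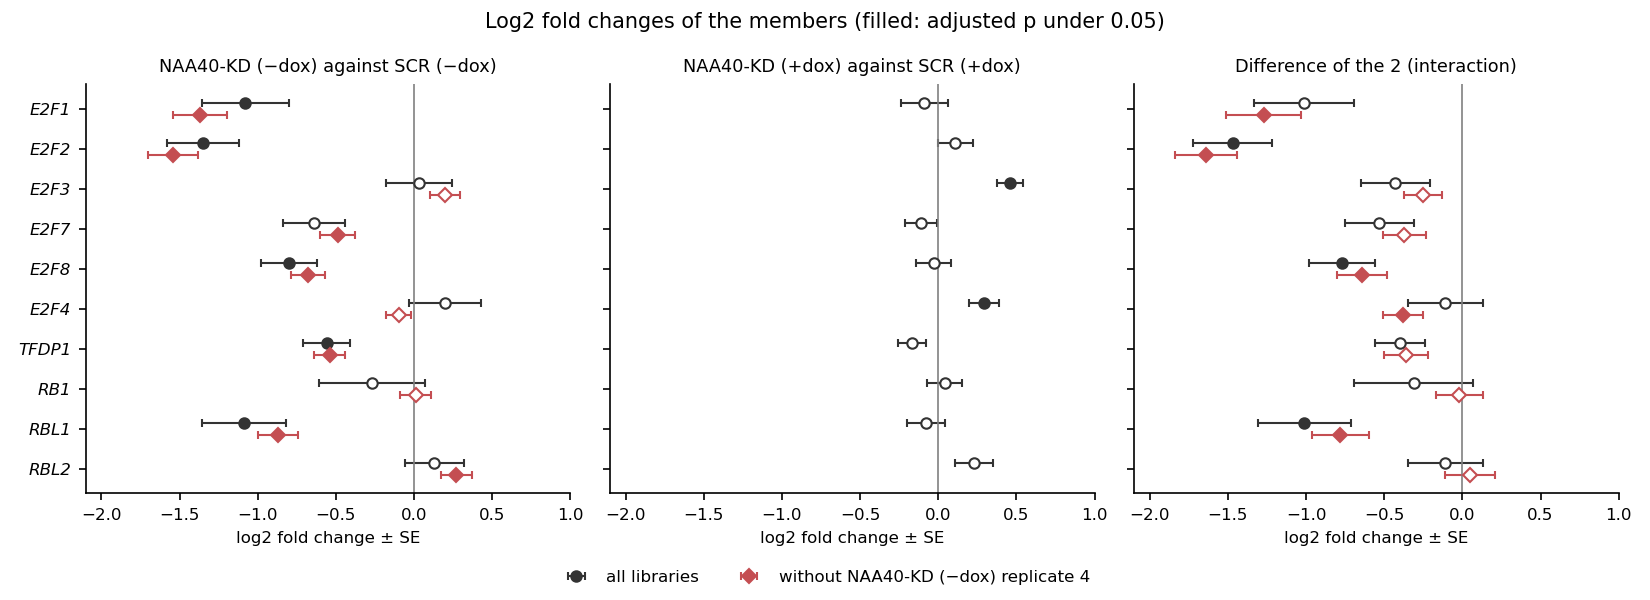
Log2 fold change ± SE (horizontal axis) of each member in the comparisons of the lines under (−dox) and under (+dox) and in their difference, with all libraries (black circles) and without NAA40-KD (−dox) replicate 4 (red diamonds, not part of the middle panel); filled symbols have an adjusted p under 0.05. E2F2 lies at −1.35 under (−dox) and at 0.11 under (+dox), E2F3 at 0.03 and 0.46, and RB1 moves from −0.27 to 0.01 when replicate 4 is left out.

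Within the NAA40-KD line, NAA40-KD (−dox) was set against NAA40-KD (+dox). This comparison shares the NAA40-KD (−dox) libraries with the first and is no independent repeat of it. E2F1 (log2 fold change −1.04 ± 0.26, adjusted p = 0.0358) and E2F2 (−1.48 ± 0.20, adjusted p = 0.00446) were lower, 2 of 10, where 4.71% of 13844 genes were. In the single libraries, NAA40-KD (+dox) held 23.5, 20.9, 25.8 and 27.4 CPM of E2F1 and 31.2, 33.7, 35.3 and 32.2 CPM of E2F2, in both cases above all 4 NAA40-KD (−dox) libraries. RBL1, at 20.2, 18.7, 20.5 and 22.2 CPM in NAA40-KD (+dox), was also separate and had a log2 fold change of −0.86 ± 0.26 (adjusted p = 0.0659). E2F2 passed in all 8 fits that left out 1 library, and E2F1 only in the fit without replicate 4 of NAA40-KD (−dox), the other 7 giving an adjusted p of 0.0667 to 0.113. E2F3 was separate too, at −0.34 ± 0.20, and did not pass (adjusted p = 0.295). The same held for E2F7 (−0.48 ± 0.19, adjusted p = 0.135), E2F8 (−0.60 ± 0.18, adjusted p = 0.0629) and TFDP1 (−0.33 ± 0.12, adjusted p = 0.102). So 7 members were separate and lower, and the share of all genes that were was not counted for this comparison. Without replicate 4 of NAA40-KD (−dox) the spread shrank and 8 members were lower and 1, RB1, was higher by 0.17 ± 0.060 (adjusted p = 0.0191), where 25.8% of genes were lower and 26.6% were higher. The 8 included E2F3 (−0.17 ± 0.062, adjusted p = 0.0276) and E2F4 (−0.27 ± 0.056, adjusted p = 0.000331), which were not lower against SCR (−dox) at the threshold. E2F1 was then at −1.32 ± 0.13 (adjusted p = 7.78e-08) and E2F2 at −1.65 ± 0.11 (adjusted p = 7.3e-12). RBL2 was the member that did not pass in that fit (0.08 ± 0.071, adjusted p = 0.34).

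Doxycycline in the control line was compared last, SCR (+dox) with SCR (−dox). Of the 10 members 0 passed, and 0% of 13882 genes did. At an unadjusted p under 0.05 there were 0 members and 271 genes, and DESeq2 and limma-voom likewise called 0 genes at an adjusted p under 0.05. With no filter on low counts, 1 of 30926 genes was called, as lower, and 0 members were. Log2 fold changes of the members lay between −0.20 ± 0.13 (RB1) and 0.04 ± 0.16 (E2F1). In single libraries E2F1 stood at 20.3, 20.8, 33.2 and 29.3 CPM in SCR (+dox).

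Genes on which these regulators act were then read from 3 lists. The first held 56 genes known as E2F targets at the start of S phase, such as the MCM helicase, DNA polymerases and nucleotide enzymes. Under (−dox), 33 of the 56 were lower in NAA40-KD and 0 were higher, where 3.54% and 2.88% of all genes were. The median log2 fold change was −0.99, against −0.60 for the members and 0.04 for all genes, and all 56 had a negative value. Without replicate 4 all 56 were lower at an adjusted p under 0.05 (median −1.01), where 19.4% of all genes were, and leaving out any one of the other 7 libraries left 17 to 24 past the threshold. GINS3, a subunit of the GINS complex of the replicative helicase, was at 5.32 ± 0.353 CPM in NAA40-KD (−dox) and at 17.2 ± 1.26 CPM in SCR (−dox), a log2 fold change of −1.69 ± 0.15 (adjusted p = 0.00183). DTL, which directs the destruction of CDT1, was at 19.4 ± 5.92 against 61.0 ± 6.4 CPM (−1.65 ± 0.24, adjusted p = 0.00638). EXO1, a repair exonuclease, was at 10.7 ± 2.75 against 32.6 ± 3.14 CPM (−1.61 ± 0.21, adjusted p = 0.00424). Under (+dox) the same list had 14 genes higher and 5 lower, with a median of 0.13, beside 10.9% and 13.7% of all genes. MSH6, a mismatch repair gene, was higher (0.59 ± 0.081, adjusted p = 4.95e-05) and MCM6, a subunit of the replicative helicase, was lower (−0.93 ± 0.094, adjusted p = 1.79e-06). In the interaction 42 of the 56 were lower, with a median of −1.12, and 0 were higher, where 4.31% of all genes were lower. Without replicate 4 of NAA40-KD (−dox) 53 were lower, where 11.9% of all genes were.

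The second list held 36 other regulators of G1, among them the remaining E2F and DP genes, MuvB subunits, cyclins and CDK inhibitors, and it shared 6 genes with the first. Under (−dox) 6 of 35 tested were lower and 0 were higher (median −0.35), where 3.54% and 2.88% of all genes were. CCNE2, which encodes cyclin E2, was at 3.95 ± 1.74 CPM in NAA40-KD (−dox) and at 11.9 ± 2.65 CPM in SCR (−dox) (log2 fold change −1.59 ± 0.31, adjusted p = 0.0208). FBXO5, the inhibitor of the anaphase-promoting complex, was at 19.0 ± 6.58 against 45.8 ± 3.24 CPM (−1.27 ± 0.25, adjusted p = 0.0222), and CDK2, the kinase partner of cyclin E, was at 38.5 ± 8.22 against 71.6 ± 7.09 CPM (−0.89 ± 0.18, adjusted p = 0.0224). Of the 6 that were lower, 5 (these 3 with CCNE1 and CDC25A) are also in the S phase list, and SKP2 alone is not. Leaving out any one library other than NAA40-KD (−dox) replicate 4 left 0 to 3 genes of the list past the threshold. Under (+dox) 4 of 34 tested were higher and 7 were lower (median 0.04), beside 10.9% and 13.7% of all genes. Among them were CCND1, which encodes cyclin D1, at 814.9 ± 46.5 against 507.5 ± 42.6 CPM (0.68 ± 0.087, adjusted p = 2.28e-05) and CDKN2C, an inhibitor of CDK4 and CDK6, at 5.69 ± 0.513 against 9.11 ± 0.458 CPM (−0.68 ± 0.13, adjusted p = 0.00143). Without replicate 4, the (−dox) comparison had 18 of 35 lower and 5 higher, where 19.4% and 17.1% of all genes were. The 5 that were higher were CCND1 and the CDK inhibitor genes CDKN2D, CDKN2B, CDKN1B and CDKN1C, with log2 fold changes of 0.38 to 0.58. The CDK inhibitor genes did not move together in that fit. CDKN2A (−0.84 ± 0.12, adjusted p = 7.97e-05) and CDKN2C (−0.81 ± 0.18, adjusted p = 0.00293) were lower, and CDKN1A did not pass (0.24 ± 0.1, adjusted p = 0.0741).

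The third list held 28 genes of G2 and mitosis that DREAM is known to bind. Under (−dox) 9 of the 28 were lower and 0 were higher (median −0.66), where 3.54% and 2.88% of all genes were. Without replicate 4, 24 were lower (median −0.59), where 19.4% of all genes were. Leaving out any one of the other 7 libraries left 1 to 7 of them past the threshold. BIRC5, which encodes survivin, was at 43.3 ± 8.68 against 97.8 ± 22.4 CPM (−1.17 ± 0.22, adjusted p = 0.0165), MKI67, the proliferation marker Ki-67, at 337.0 ± 44.3 against 694.6 ± 88.8 CPM (−1.03 ± 0.15, adjusted p = 0.00638), and AURKA, a mitotic kinase, at 37.9 ± 8.27 against 72.4 ± 4.87 CPM (−0.93 ± 0.18, adjusted p = 0.0172). Under (+dox) 8 were lower and 0 were higher (median −0.17), beside 13.7% and 10.9% of all genes. BIRC5 was lower there too (−0.94 ± 0.11, adjusted p = 9.05e-06), as was PTTG1, which encodes securin (−0.45 ± 0.13, adjusted p = 0.0143). The lists were chosen with earlier results of these data known and were given no test as sets.

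**Figure D5:**
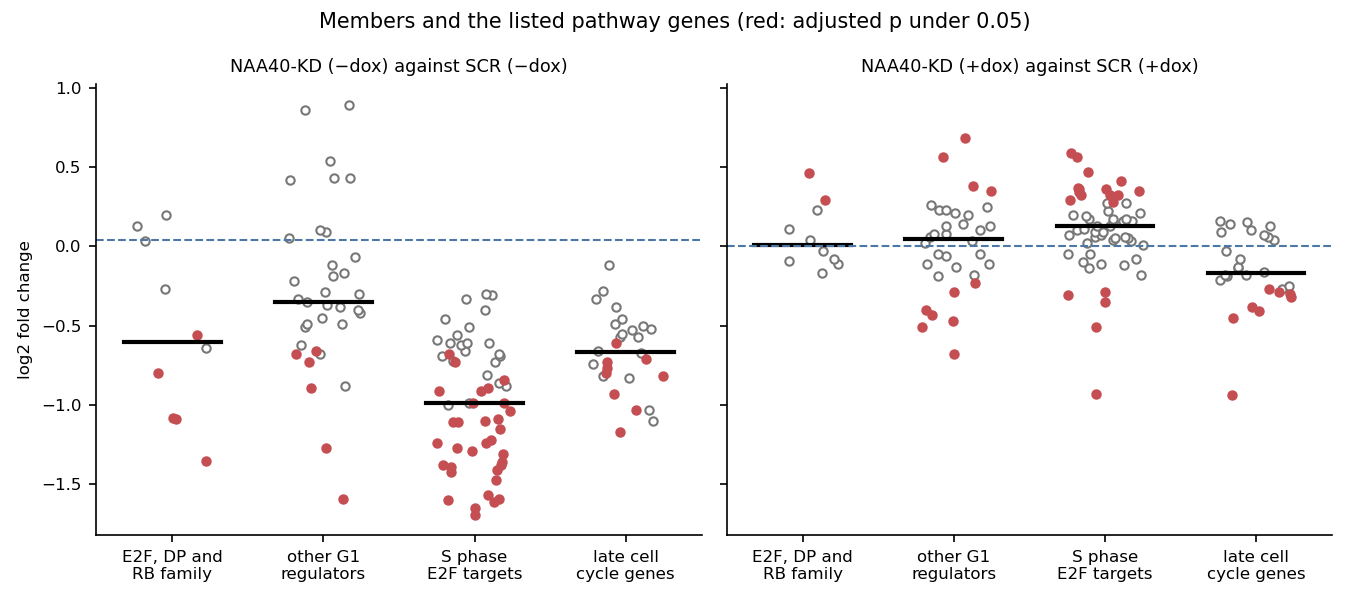
Log2 fold change (vertical axis) of the 10 members and of the genes of the 3 lists in NAA40-KD against SCR under (−dox), left, and under (+dox), right; red points have an adjusted p under 0.05, black bars are medians and the dashed line is the median of all genes tested. Under (−dox) the medians are −0.60, −0.35, −0.99 and −0.66 from left to right, and under (+dox) they are 0.01, 0.04, 0.13 and −0.17.

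The genes whose 4 group means were most like those of E2F1, E2F8 and RBL2 were sought among 11454 genes of at least 5 CPM in a group, by the Euclidean distance between log2 CPM profiles centred on their own mean. SPC25 (distance 0.034), PON2 and RAB21 lay nearest to E2F1, GPLD1 (0.0244), RANBP9 and CENPF to E2F8, and TPBG (0.00411), AHR and SF3B1 to RBL2. These neighbours depended on replicate 4 of NAA40-KD (−dox), without which SPC25 fell to rank 233 for E2F1, TPBG to rank 3473 for RBL2 and GPLD1 to rank 15 for E2F8.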

How the data were processed

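RNA-seq counts of 16 HCT116 libraries were analysed, in the 4 groups that the labels of the samples give, with 4 replicates each. The authors deposited raw counts, reads assigned to each of 33937 genes by featureCounts after alignment with STAR. The labels name the builds hg38 and GRCm38, while all 33937 identifiers are human Ensembl identifiers, and the strand setting is not given in the sources used here. Every column of counts was matched to its sample (0 were left over). Symbols were found for 33590 identifiers and GENCODE release 29 entries (GRCh38) for 33811.

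From the counts, edgeR 4.0.16 in R 4.3.3 gave TMM-normalized CPM and robust quasi-likelihood F tests (two-sided, Benjamini-Hochberg over all genes tested) for genes above 1 CPM in 4 or more of the libraries fitted. A gene passed at an adjusted p under 0.05. Each comparison was fitted on its own 8 libraries, and the interaction on all 16. The SE was taken as the absolute log2 fold change over the root of the F statistic. The study calls the samples independent, but no label ties them to separate cultures, so p-values measure the spread between these libraries, which may be technical. The fits were tested on simulated counts. Alternatives were DESeq2 1.42.0, limma-voom (limma 3.58.1), upper-quartile or library size scaling, other filters, all 16 libraries, a replicate block, other thresholds and leaving out each library. Without replicate 4 of NAA40-KD (−dox), levels and profiles were also recomputed, and GC content and the counts of genes with E2F elements were added, after the data were seen. The members and lists were chosen with earlier results of these data known. All 10 members were named, with NAA40, the 3 genes of each list with the largest absolute log2 fold change among those that passed under (−dox), the 2 under (+dox), and the 3 nearest profiles of E2F1, E2F8 and RBL2. The other G1 regulators that passed under (−dox), those higher there without replicate 4, and the remaining CDK inhibitor genes of that list were named as well. Total counts of 11065606 to 13855486 put 66 to 2949 reads on a member in a library. Promoters are those of RefSeq (GRCh38.p14).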

Additional observations from a re-analysis of the deposited data

Results flagged for a closer look

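In 4 of 44 levels tested (10 members and NAA40 in 4 groups), 1 library lay far from the other 3 by Dixon's test at the 95% level, which flags about 1 in 20 groups by chance. NAA40-KD (−dox) replicate 4 accounted for 3 of them, with E2F4 at 195.4 CPM, RB1 at 19.3 CPM and RBL1 at 5.43 CPM, against 103.0 to 111.2, 66.8 to 69.6 and 12.5 to 13.7 CPM in the other 3 libraries of the group. This is the library whose deviations followed GC content (−1.20 to 1.11 log2 units from the lowest to the highest of 5 bins), and RB1 and RBL1 were in the lowest bin and E2F4 in the highest. The fourth was RB1 in NAA40-KD (+dox) replicate 2, at 64.6 CPM against 59.5 to 60.0 CPM.

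The difference between the lines was not the same under both doxycycline labels for E2F2 (interaction −1.47 ± 0.25), E2F8 (−0.77 ± 0.21) and RBL1 (−1.01 ± 0.30), and for NAA40 itself (−1.46 ± 0.18, adjusted p = 0.00022). The level of NAA40 goes against the doxycycline labels, so whether these libraries received doxycycline cannot be told from the counts.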

How the results depend on the processing

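Of 429 log2 fold changes recomputed without leaving out a library, 397 kept their direction and their side of the threshold, 14 gained and 12 lost the call, and 6 changed sign; the 80 mean levels of other scalings all moved by less than their SD. Those that changed sign were E2F3 under (−dox), at −0.00 with limma-voom and with the replicate block, and E2F4 in NAA40-KD (−dox) against NAA40-KD (+dox), at −0.05 with limma-voom and with the block and at −0.03 by library size alone and with no filter on low counts; none of these passed. The cause of the changes below was not tested, other than that a threshold of 0.01 or 0.1 and a fit with fewer libraries change a count by construction.

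Under (−dox), the count of 5 members was 3 by library size alone, 1 with the replicate block and 0 at an adjusted p under 0.01. The G1 list had 14 with DESeq2, 18 in the fit of all 16 libraries and 0 with the block, the S phase list 51 with all 16 and 8 with the block, and the late list 17 with DESeq2, 21 with all 16 and 0 with the block. Under (+dox), the count of 2 members was 0 in the fit of all 16 and 1 at 0.01, and the G1, S phase and late lists had 2, 3 and 1 with all 16. In NAA40-KD (−dox) against NAA40-KD (+dox), 2 members became 5 with DESeq2, 6 with all 16, 1 at 0.01 and 4 at 0.1. In the interaction 3 became 1 at 0.01.

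Leaving out 1 library gave 1 (SCR (−dox) replicate 1, for one) to 7 members under (−dox), 1 to 2 under (+dox), 1 to 9 in NAA40-KD (−dox) against NAA40-KD (+dox) and 1 to 5 in the interaction, the highest counts under (−dox), within the line and in the interaction being without NAA40-KD (−dox) replicate 4. Under (−dox) the G1, S phase and late lists ran from 0, 17 and 1 without SCR (−dox) replicate 1 to 23, 56 and 24 without NAA40-KD (−dox) replicate 4. Under (+dox) they ran from 6 (NAA40-KD (+dox) replicate 2) to 13 (SCR (+dox) replicate 1), from 8 (NAA40-KD (+dox) replicate 4) to 22 (SCR (+dox) replicate 3) and from 4 (NAA40-KD (+dox) replicate 1) to 12 (SCR (+dox) replicate 4). Log2 fold changes that took both signs ran under (−dox) from −0.06 to 0.20 for E2F3, from −0.10 to 0.30 for E2F4 and from −0.38 to 0.01 for RB1, under (+dox) from −0.18 to 0.05 for E2F1, from −0.10 to 0.04 for E2F8 and from −0.06 to 0.11 for RB1, within the NAA40-KD line from −0.27 to 0.11 for E2F4, from −0.23 to 0.17 for RB1 and from −0.14 to 0.08 for RBL2, in SCR (+dox) against SCR (−dox) from −0.10 to 0.14 for E2F1, from −0.09 to 0.12 for E2F2 and from −0.12 to 0.05 for RBL2, and in the interaction from −0.19 to 0.05 for RBL2.

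Same-numbered libraries were taken as not paired, since in no comparison did all 4 pairs have deviations that correlated above 0.1: from −0.416 to 0.142 (1 of 4 above 0.1) for NAA40-KD and SCR under (−dox), from −0.0378 to 0.185 (2 of 4) under (+dox), from 0.0341 to 0.237 (3 of 4) within the NAA40-KD line and from −0.276 to 0.0211 (0 of 4) within the SCR line. Differently numbered libraries ran from −0.457 to 0.543 under (−dox) and from −0.242 to 0.136 within the NAA40-KD line. Deviations from a mean of 4 libraries depend on each other, so this rule cannot exclude a pairing. With the replicate block E2F2 was the 1 member that passed under (−dox) (adjusted p = 0.0401), and the counts of 2, 2, 0 and 3 in the other comparisons stayed, though in the interaction E2F1 passed (adjusted p = 0.0164) and RBL1 did not (adjusted p = 0.058). Over all genes, 892 calls under (−dox) became 1914 with DESeq2, 2951 with all 16 libraries, 82 with the block and 226 to 438 without any library but NAA40-KD (−dox) replicate 4, without which there were 5021; 3402 under (+dox) became 966 with all 16; and 1414 within the NAA40-KD line became 2526 with DESeq2, 3210 with all 16 and 777 with the block. At these depths RBL1, with 66 to 375 reads in a library, is the least precisely counted member.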

Other observations

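Genes other than the members with an E2F element in a RefSeq promoter were counted as well, a count added after the data were seen and given no test. In NAA40-KD (−dox) against SCR (−dox), 39 of 682 such genes were lower (5.72%) and 10 were higher (1.47%), with a median log2 fold change of −0.04, while of 9807 genes with a promoter and no element 3.29% were lower and 2.58% were higher, with a median of 0.04. Without replicate 4 of NAA40-KD (−dox), 26.9% of the genes with an element were lower and 12.8% were higher, against 19.4% and 17.7% of those without one. In NAA40-KD (+dox) against SCR (+dox), 11.1% of genes with an element were lower and 13.7% were higher, against 14.2% and 10.9%. Most genes with an element did not pass in any of these counts.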
